A study of Mus musculus with 18 samples.

Results

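miR-335 was followed across 18 small RNA libraries from sorted mouse brain cells. It is represented by its 2 mature arms, mmu-miR-335-5p and mmu-miR-335-3p, which are 2 of the 1978 mature miRNA rows in a table of 203513 features. The libraries were made at 10 months of age from wild-type mice (WT) and from mice homozygous for Atxn2-CAG100-KIN (KIN), a knock-in of an expanded CAG repeat into the mouse Atxn2 gene that serves as a model of spinocerebellar ataxia type 2. Both genotypes were bred on a C57BL/6 background. From each brain, CD11b beads took microglia first, ACSA-2 beads took astrocytes next, and neurons were what remained after removal of other labelled cells and of CD31-positive endothelium. Each combination of fraction and genotype has 3 libraries, which gives 6 groups, and each library came from a single mouse brain. By the study's account the mice were littermate pairs of like sex, 2 pairs male and 1 female. The labels tie no replicate number to a pair, a sex or a brain. The study took all fractions in turn from each brain of 3 WT and 3 KIN mice, so libraries of different fractions share brains. Which ones do is not given, and comparisons between fractions treat them as independent unless a block is named. The allele is present in every cell, so the fractions differ in what was sorted and not in where the expansion is. The counts per feature cannot show the repeat itself, so the genotype labels were not checked against it.

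MicroRNAs are short RNAs cut from a stem-loop precursor. One arm of the stem is usually loaded into Argonaute, where bases 2 to 8, the seed, pair with target mRNAs and lower their stability or translation. Mir335 lies inside Mest, also called Peg1, an imprinted gene of the alpha/beta hydrolase fold family that is transcribed from the paternal allele and is abundant in embryonic mesoderm and in the developing brain. In cancer cells miR-335 is known for its action on the transcription factor SOX4 and the matrix protein tenascin C. Atxn2 encodes an RNA-binding protein that associates with poly(A)-binding protein and stress granules.

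The sequences below show what was counted. Capitals mark bases 2 to 8 in the mature arms, and in the precursor they mark the position of both arms, so that the strong pairing between them can be read. Sequences are those of RefSeq.
mmu-miR-335-5p: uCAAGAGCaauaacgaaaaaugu
mmu-miR-335-3p: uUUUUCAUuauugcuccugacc
Mir335 hairpin: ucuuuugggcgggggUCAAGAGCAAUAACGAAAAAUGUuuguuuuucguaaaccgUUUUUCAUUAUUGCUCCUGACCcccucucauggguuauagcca

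The 98-base hairpin matched the GRCm39 genome exactly at chr6:30741298-30741395 on the plus strand. The 5p arm is 23 bases long and covers 30741313 to 30741335, which are bases 16 to 38 of the hairpin. The 3p arm is 22 bases long and covers 30741353 to 30741374, which are bases 56 to 77. Folding of the hairpin with RNAfold gave a minimum free energy of -44.3 kcal/mol and paired 18 bases of the 5p arm with the 3p arm. No other mature miRNA among the 1978 in the table has the same bases 2 to 8 as either arm. With bases 2 to 7 only, 1 other miRNA matched each arm, mmu-miR-7646-5p the 5p arm and mmu-miR-6986-3p the 3p arm, so miR-335 forms a seed group of its own.

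Mest spans 30723546 to 30752058 on the same strand. The hairpin is intronic in all 21 of the 25 annotated Mest transcripts that span it, and in 20 of these it lies in the same 1316-base intron, from 30740824 to 30742139, starting 474 bases after the upstream exon. In the canonical transcript, Mest-225, this is the intron between exons 2 and 3. Copg2, which encodes a coatomer subunit and is transcribed from the opposite strand, ends 109 bases beyond the hairpin. The hairpin is thus not overlapped by Copg2, which matters because the reads were counted without regard to strand. Annotated genes other than Mest and its named neighbours were not searched for overlap.

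**Figure D1:**
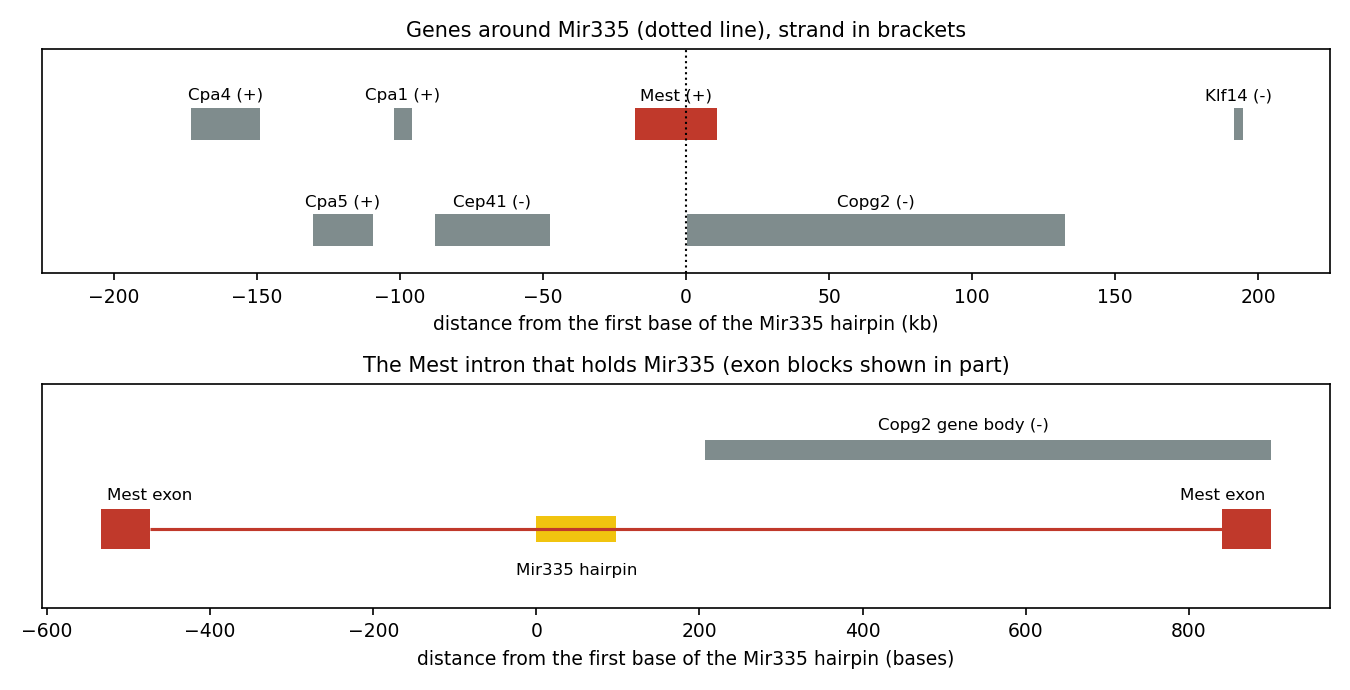
Position of Mir335 among its neighbours. The upper map shows gene bodies by distance from the first base of the hairpin in kb, with Mest in red, and the lower map shows the 1316-base Mest intron by distance in bases, with the hairpin in yellow. The hairpin starts 474 bases into the intron, and the Copg2 gene body begins 109 bases after it.

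Library totals ranged from 1211118 to 4316748 reads, and the neuron libraries were the shallowest, at 1211118 to 2427384. Mature miRNAs made up 5.05% to 10.3% of the reads in astrocyte and microglia libraries but only 0.964% to 2.13% in neuron libraries, so levels are given both as counts per 1000000 reads of the library (CPM) and as counts per 1000000 mature miRNA reads, the mature scale. In astrocytes this share also differed by genotype, at 5.05% to 8.30% in WT and 8.43% to 10.3% in KIN. Defining markers fitted the microglia label, with miR-142a and miR-223 together at 2835 to 5914 CPM there against 10.2 to 377 CPM elsewhere. The astrocyte fraction held the astrocyte transcripts, but it also held the 3 oligodendrocyte miRNAs at 1770 to 5112 CPM and the 3 neuronal miRNAs (miR-124-3p, miR-128-3p and miR-138-5p) at 1036 to 3150 CPM. The fraction labelled neurons had these neuronal miRNAs at only 48.7 to 228 CPM, which goes against its label, although fragments of 6 neuronal mRNAs were highest there in sum, at 16.5 to 42.9 CPM against 0.233 to 23.2 CPM elsewhere. Erythroid miRNAs (miR-451a, miR-144-3p and miR-486a-5p) were highest in neuron libraries on the mature scale, at 2981 to 15669 against at most 1554 elsewhere. On that scale the microglial miRNAs were at 4454 to 23562 in neuron libraries and at 52839 to 69956 in microglia libraries. The 3 neuronal miRNAs were at 5054 to 11831 in neuron libraries. Fragments of Xist, the RNA of the inactive X chromosome, were at 4 to 5 counts in KIN replicate 1 of every fraction and at 12 to 102 counts in the other 15 libraries. No WT library was as low, which goes against KIN and WT pairs of the same sex. So few low libraries also go against mostly male pairs. The genotype differences of the 5p arm are therefore also given without KIN replicate 1.

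The 5p arm was detected in all 18 libraries, with 3645 reads in sum. In astrocytes it measured 42.9, 66.1 and 51.6 CPM in the WT replicates and 202, 238 and 223 CPM in the KIN replicates. In microglia it measured 7.49, 8.64 and 8.73 CPM in WT and 6.67, 5.56 and 6.28 CPM in KIN. In neurons it measured 22.3, 84.8 and 29.5 CPM in WT and 52.5, 33.8 and 39.2 CPM in KIN. The KIN astrocytes therefore stood above all other libraries, the microglia below all others, and WT astrocytes and both neuron groups overlapped in between. These levels are a description, because miR-335-5p was chosen by its difference in read counts between KIN and WT astrocytes.

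By group mean in CPM the order was KIN astrocytes at 221 ± 18.2 (SD, n = 3), WT astrocytes at 53.5 ± 11.7, WT neurons at 45.5 ± 34.2, KIN neurons at 41.8 ± 9.62, WT microglia at 8.28 ± 0.691 and KIN microglia at 6.17 ± 0.564. WT astrocytes and both neuron groups did not differ beyond the spread of their libraries. Among mature miRNAs, which all have about the same length, miR-335-5p ranked 56 from the top of 803 detected in KIN astrocytes and 95 of 747 in WT astrocytes. Its rank was 51 of 468 in WT neurons, 54 of 519 in KIN neurons, 178 of 725 in WT microglia and 195 of 721 in KIN microglia.

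The order changed on the mature scale. Neurons were then at 2313, 4394 and 2722 in WT and at 2466, 2542 and 2441 in KIN. Astrocytes were at 850.2, 796 and 848 in WT and at 1950.4, 2607 and 2649 in KIN. Microglia were at 145, 169.8 and 146 in WT and at 114, 65.8 and 75.2 in KIN. On this scale every neuron library was above every WT astrocyte library, KIN astrocytes overlapped KIN neurons, and microglia stayed lowest. The WT neuron mean was 3.78 times the WT astrocyte mean, where in CPM it was 0.85 times that mean.

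**Figure D2:**
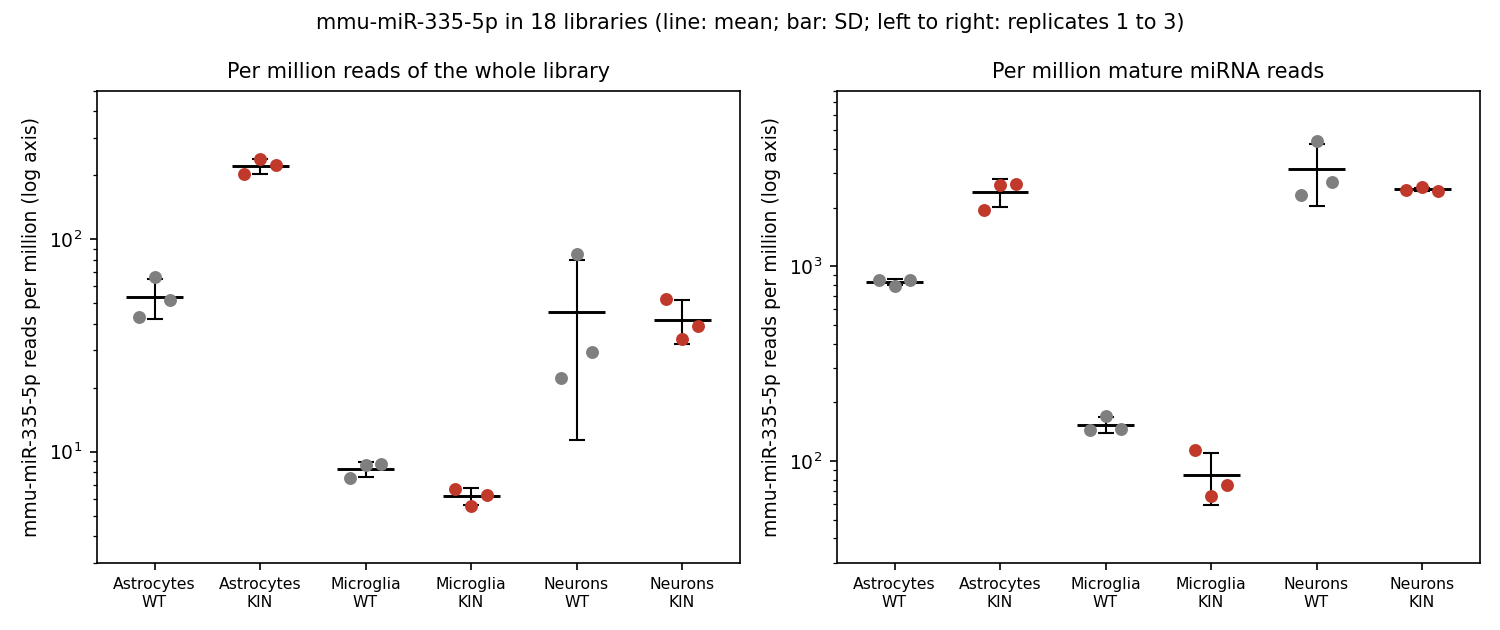
mmu-miR-335-5p in each library, on log axes, in CPM (left) and on the mature scale, per 1000000 mature miRNA reads (right); points are libraries, lines are group means and bars are SD. KIN astrocytes lie above WT astrocytes on both scales (202 to 238 against 42.9 to 66.1 CPM), and the neuron libraries move up to 2313 to 4394 on the right-hand scale.

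In astrocytes, KIN exceeded WT by a fitted log2 fold change of 2.17 ± 0.20 (SE) for the 5p arm, 1.83 ± 0.35 for the 3p arm and 2.08 ± 0.17 for the hairpin feature. No test is attached, since this is the contrast from which miR-335 was chosen. The KIN range and the WT range did not overlap for any of these features in CPM. For comparison, 10.8% of the 5694 features tested in astrocytes had all KIN libraries above all WT libraries in CPM, 18.4% of the mature miRNAs did so on the mature scale, and edgeR called 8.18% of the 5694 features in either direction. The median mature miRNA had a log2 fold change of 0.58 in this contrast and the median over all tested features was -0.19. The value of miR-335-5p was exceeded by that of 8 of the 418 mature miRNAs tested, and its hairpin ranked 5 of 285 hairpin features.

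The size of the astrocyte difference depended on the scale. With mature miRNA reads as the denominator the log2 fold change was 1.56 ± 0.25 for the 5p arm and 1.12 ± 0.49 for the 3p arm. This scaling moved the median of all tested features from -0.19 to -0.84, and relative to that median the 5p arm was higher by 2.35 with TMM and by 0.05 more with mature miRNA scaling. Leaving out each astrocyte library in turn gave values between 1.98 and 2.36. Without KIN replicate 1, the library with few Xist fragments, it was 2.25 ± 0.22. Without WT replicate 2, which had the highest WT level, it was 2.36 ± 0.15.

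Some markers of other cells differed in the same libraries. The 3 miRNAs of ciliated ependyma (miR-34b-5p, miR-34c-5p and miR-449a-5p) summed to 900.3 to 1501 CPM in WT and 2156 to 2274 CPM in KIN astrocytes, with no overlap, and the single call among them was miR-34b-5p, at 1.05 ± 0.22 (log2) with an edgeR adjusted p of 0.0186. The 3 oligodendrocyte miRNAs summed to 1770 to 3035 CPM in WT and 3351 to 5112 CPM in KIN, and miR-219a-5p was called at 1.11 ± 0.21 with an edgeR adjusted p of 0.0151. The 3 microglial miRNAs were at 10.2 to 12.6 CPM in WT and up to 48.5 CPM in KIN, with no overlap. Among them miR-142a-3p was called at 1.96 ± 0.33 with an edgeR adjusted p of 0.00975. Fragments of the 6 microglial marker genes overlapped, at 0.502 to 2.54 CPM in WT and 1.07 to 1.74 CPM in KIN. None of their transcripts had enough reads in astrocytes to be tested. In this contrast edgeR called 13.4% of the 418 mature miRNAs. Over the 6 fits that left out 1 library, miR-34b-5p was called in 1 (without WT replicate 2), miR-219a-5p in 2 and miR-142a-3p in 4. None of the neuronal, choroid plexus, endothelial, mural or erythroid miRNAs tested was called, and no listed miRNA was at 0 in either astrocyte group.

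On the mature scale the sums that were higher in KIN differed less. The mean sum of the oligodendrocyte miRNAs was 35720 in WT and 44629 in KIN astrocytes, and that of the ependymal miRNAs was 18873 and 23920. For the microglial miRNAs it was 184 and 376. The WT and KIN ranges of each of these sums still did not overlap, an order shown by 18.4% of the mature miRNAs tested. The neuronal miRNAs, which overlapped in CPM, were at 23797 to 37936 in WT and 12290 to 19560 in KIN. The endothelial miRNAs were at 6776 to 7291 and 2598 to 4469, both lists without overlap. Mural and choroid plexus miRNAs were ordered in the same way, while the erythroid miRNAs overlapped. How often astrocyte features had every KIN library below every WT library was not counted on either scale. No background share can therefore be given for these orders or for that of the astrocyte marker fragments below. Fragments of the 6 astrocyte marker genes summed to 228 to 262 CPM in WT and to a mean of 85.0 CPM in KIN, again with no overlap, and 7 of their 21 tested transcript features were called lower, where 8.18% of all features were called. Over the 6 fits that left out 1 library, these calls held in 1 to 6 fits, and most held in 3 or fewer. Fragments of the 6 neuronal genes were at 6.53 to 23.2 CPM in WT and 5.30 to 7.26 CPM in KIN, which overlap. The part of these cells in the miR-335 difference was not tested, and in sorted bulk samples fewer cells of a type and less RNA per cell cannot be told apart.

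In microglia, the libraries had 26, 30 and 32 reads of the 5p arm in WT and 21, 24 and 27 in KIN. All KIN libraries were below all WT libraries in CPM, but 18.5% of the 4940 features tested in microglia showed that order. The fit put KIN at -0.21 ± 0.32 (log2) against WT (edgeR adjusted p of 0.775), and the interval of 1.96 SE on either side ran from -0.83 to 0.42. A change was thus not detectable at this depth, where edgeR called 4.35% of features. On the mature scale the groups also did not overlap, with means of 153 ± 14.2 and 84.9 ± 25.5 (SD, n = 3), and 33.2% of the 382 mature miRNAs tested were ordered in that way. Under that scaling the fit gave -0.58 ± 0.33 (edgeR adjusted p of 0.295). The hairpin feature, at 23, 21 and 27 reads in WT and 16, 14 and 27 in KIN, gave -0.22 ± 0.37 with an edgeR adjusted p of 0.798. Without KIN replicate 1 the 5p arm was at -0.35 ± 0.35 (edgeR adjusted p of 0.618).

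Some markers of the other fractions, both of which held more miR-335-5p than microglia did, were also lower in KIN microglia. Fragments of the neuronal genes were at 2.02 to 11.5 CPM in WT and 0.233 to 1.16 CPM in KIN, those of the astrocyte genes at 3.17 to 11.2 CPM and 1.62 to 2.33 CPM, and the neuronal miRNAs at 60.7 to 159 CPM and 47.0 to 55.1 CPM, each without overlap. Among single features, 18.5% of the 4940 tested in microglia had all KIN libraries below all WT libraries in CPM. Fragments of Syt1, Rbfox3 and Stmn2 were at 0 in KIN microglia. Of these miRNAs, miR-124-3p was called, at -1.28 ± 0.31 (log2) with an edgeR adjusted p of 0.0485, where edgeR called 10.5% of the mature miRNAs, and this call held in 1 of the 6 fits that left out 1 library (without WT replicate 2). Fragments of the 6 marker genes of microglia themselves were also lower, at 95.6 to 137 CPM in WT and 57.8 to 85.0 CPM in KIN, without overlap. Of their 15 tested transcripts 1 was called lower, and that call held in 2 of the 6 fits that left out 1 library. Other lists had higher means in KIN than in WT microglia. The microglial miRNAs were at 4697 against 3090 CPM, with ranges that overlapped. The oligodendrocyte miRNAs were at 38.3 against 32.3 CPM and the choroid plexus miRNAs at 243 against 167 CPM. Erythroid miRNAs were at 65.6 against 20.4 CPM. Among the choroid plexus miRNAs, miR-211-5p was called, at 3.03 ± 0.35 (log2) with an edgeR adjusted p of 0.00692. That call held in 4 of the 6 fits. Endothelial, mural and ependymal miRNAs had lower means. The part of all these cells in the miR-335 values was not tested.

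In neurons, the 5p arm had 27, 166 and 45 reads in WT and 123, 82 and 95 in KIN. The KIN libraries fell between the lowest and the highest WT libraries. The fit put KIN at -0.13 ± 0.50 (log2) against WT (edgeR adjusted p of 0.976), and the interval ran from -1.11 to 0.85. WT replicate 2 set the sign: it was the deepest WT neuron library, had the most mature miRNA reads of the 3 at 1.93%, and had oligodendrocyte miRNAs at 111 CPM against at most 11.5 CPM in the other neuron libraries. Without it the value was 0.64 ± 0.39, with an edgeR adjusted p of 0.540, and without KIN replicate 1 it was -0.30 ± 0.60. No feature was called in neurons by edgeR (0 of 4535, or 0%) or by DESeq2, and 197 features had an unadjusted edgeR p of at most 0.05 against 124 with DESeq2.

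Microglia against neurons was tested within each genotype, since the difference by which miR-335-5p was chosen lies in the astrocyte libraries. The choice was made with earlier results of these data known, so these p-values are not independent of it. In WT, the 5p arm was lower in microglia at -2.25 ± 0.56 on the log2 scale (edgeR adjusted p of 0.0144), and every microglia library was below every neuron library. In KIN the value was -2.28 ± 0.35, with an edgeR adjusted p of 6.94e-06, and again the ranges did not overlap. All microglia libraries were below all neuron libraries in CPM for 24.7% of the tested features in WT and 39.9% in KIN, and edgeR called 28.0% and 53.0% of features in either direction. The median mature miRNA was higher in microglia in both, by 2.56 in WT and 3.09 in KIN, so miR-335-5p ran opposite to most miRNAs. A higher value than that of miR-335-5p was found for 328 of the 343 mature miRNAs in WT and for 339 of the 360 in KIN.

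The WT call was lost without microglia WT replicate 1 (-2.04 ± 0.74, edgeR adjusted p of 0.0929) and without microglia WT replicate 3 (-2.16 ± 0.76, edgeR adjusted p of 0.0788), and without neuron WT replicate 2 the value was -1.54 ± 0.46. The KIN call was kept in every fit that left out 1 library, KIN replicate 1 of either fraction included. With the replicate number as a block, which would stand for the brain if numbers mark brains, the values were -2.03 ± 0.57 in WT (edgeR adjusted p of 0.00203) and -2.26 ± 0.40 in KIN (edgeR adjusted p of 8.71e-08). With mature miRNA scaling the differences were -3.69 ± 0.53 in WT and -4.33 ± 0.34 in KIN. That scaling moved the median of all features to -1.43 and -2.10, and relative to these medians the 5p arm was at -2.26 and -2.23.

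Whether the KIN effect differed between microglia and neurons was tested by an interaction term over the 12 libraries of both fractions. The difference, microglia minus neurons, was 0.09 ± 0.65 on the log2 scale, with an edgeR adjusted p of 1.0 and an interval from -1.18 to 1.37, where edgeR called 0.639% of 6414 features. With the replicate number as a block the value was -0.11 ± 0.63. The interval is wide enough to include more than a doubling in either direction.

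**Figure D3:**
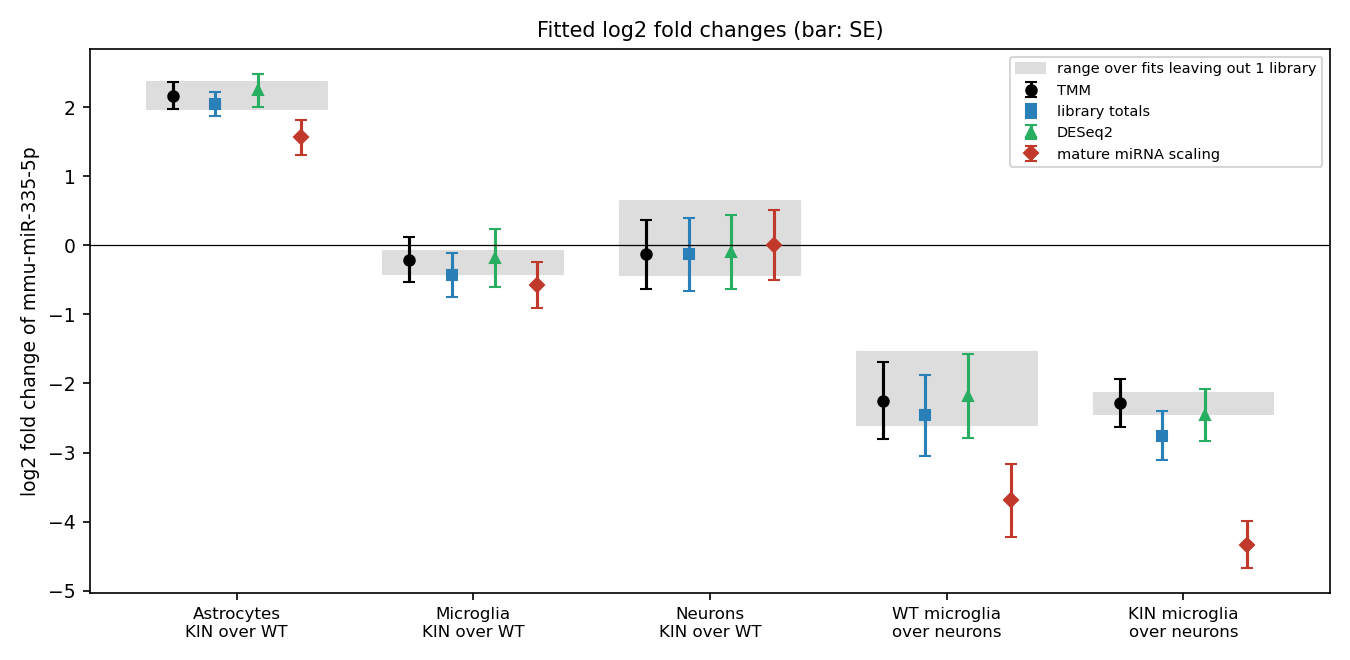
Fitted log2 fold changes of mmu-miR-335-5p in 5 comparisons, with SE bars, under 4 ways of scaling (symbols). Grey bands give the range when 1 library at a time is left out. Astrocyte values stay between 1.56 and 2.24 across the symbols, the microglia and neuron values lie near 0, and mature miRNA scaling lowers both microglia-over-neuron values, to -3.69 and -4.33.

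The 3p arm, the less abundant strand, was found in 16 of 18 libraries with 181 reads in sum. In astrocytes it had 16, 10 and 8 reads in WT and 38, 39 and 39 in KIN, which is 3.34 ± 1.51 and 10.8 ± 0.291 CPM (SD, n = 3). In microglia no library exceeded 3 reads, so no fold change is given. In neurons it had 1, 5 and 0 reads in WT and 11, 3 and 2 in KIN. The neuron groups overlapped, and the fitted difference of 0.83 ± 1.03 (log2) had an edgeR adjusted p of 0.918. The library without 3p reads in KIN microglia had a limit of 3 counts, or 0.695 CPM, which the same count sets higher in the shallower WT neuron library.

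Reads that did not match a mature miRNA but matched the Mir335 hairpin transcript were counted as a separate feature under the Mir335 gene. It followed the 5p arm, at 113, 170 and 123 reads in WT astrocytes and 491, 557 and 566 reads in KIN astrocytes. In neurons it had 24, 123 and 34 reads in WT and 102, 70 and 77 in KIN. KIN neurons were at -0.02 ± 0.48 (log2) against WT neurons (edgeR adjusted p of 1.0). In microglia against neurons it was lower, at -2.19 ± 0.53 in WT (edgeR adjusted p of 0.0127) and -2.35 ± 0.37 in KIN (edgeR adjusted p of 1.04e-05). The WT call was lost with no count filter (edgeR adjusted p of 0.0503), without microglia WT replicate 1 (edgeR adjusted p of 0.0839) and without microglia WT replicate 3 (edgeR adjusted p of 0.0704).

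The ratio of hairpin reads to reads of both arms ranged from 0.583 to 0.931 over the 18 libraries. Its mean was 0.687 ± 0.0629 in WT and 0.648 ± 0.0236 in KIN astrocytes (SD, n = 3), and these ranges overlapped. In neurons it was 0.777 ± 0.0715 in WT and 0.793 ± 0.0312 in KIN. Over all libraries the ratio was 0.674 for miR-335, against a median of 0.502 (quartiles 0.285 and 0.707) for the 181 single-copy miRNA genes with at least 100 mature reads. Because the deposited table gives no read lengths, precursor molecules and slightly longer or shifted mature reads cannot be separated in this feature, and it is no independent measure of transcription.

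**Figure D4:**
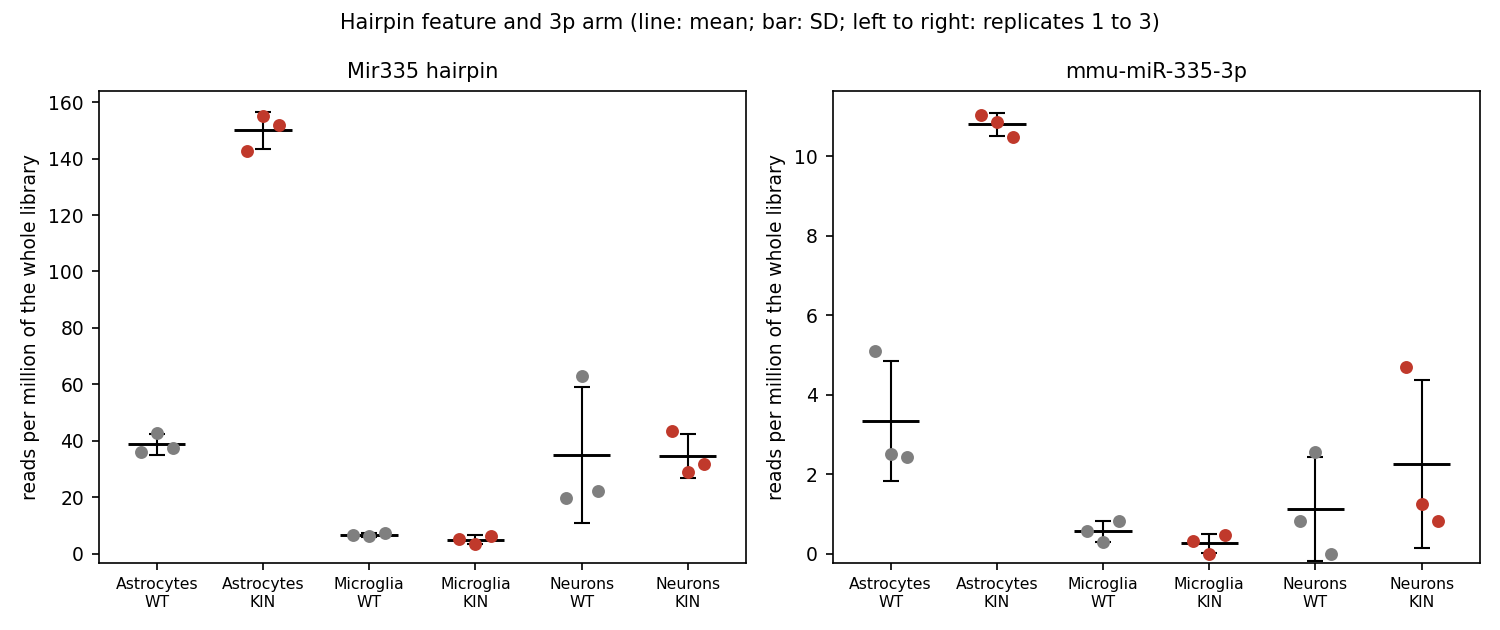
Hairpin feature (left) and 3p arm (right) in CPM; points are libraries, lines are means and bars are SD. Both are highest in KIN astrocytes, at 143 to 155 and 10.5 to 11.1 CPM, and the 3p arm is near 0 in microglia.

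The share of the 5p arm among reads of both arms does not depend on library scaling. It was 89.4%, 96.3% and 95.5% in WT astrocytes and 94.8%, 95.6% and 95.5% in KIN astrocytes. Group means lay between 93.7% in WT microglia and 97.8% in WT neurons. The deepest library, KIN astrocyte replicate 2 with 893 reads of both arms, had an exact (Clopper-Pearson) 95% interval of 94.1% to 96.9%, and the shallowest, KIN microglia replicate 1 with 22 reads, one of 77.2% to 99.9%. These intervals cover counting error only.

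Differences that involve astrocyte libraries are a description, since they hold the counts from which miR-335 was chosen. KIN minus WT was 1.57 percentage points in astrocytes, astrocytes minus microglia was -0.402 and astrocytes minus neurons was -2.08. In the other fractions, KIN minus WT was 2.50 percentage points in microglia (two-sided exact permutation p = 0.4, adjusted 0.75) and -2.43 in neurons (exact permutation p = 0.5, adjusted 0.75), where 3 against 3 libraries cannot give a p below 0.1. Microglia minus neurons, with 6 libraries each, was -1.68 (exact permutation p = 0.329, adjusted 0.75). P-values were adjusted over 6 comparisons. A p that misses the threshold at these read numbers does not show that the shares were equal. Over all libraries the 5p arm took 95.3%, and 118 of the 210 miRNAs with at least 100 reads over both arms were more one-sided.

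**Figure D5:**
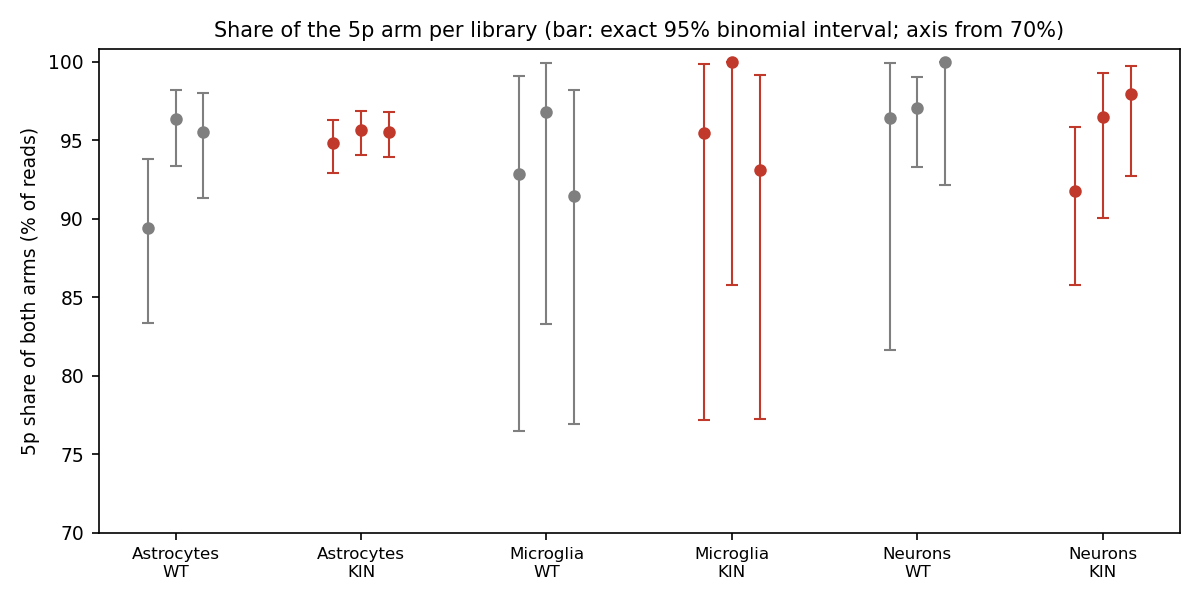
Share of the 5p arm among reads of both miR-335 arms in each library, with exact 95% binomial intervals; the axis starts at 70%. All libraries lie between 89.4% and 100%, and intervals are narrow in KIN astrocytes and wide in microglia.

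The host gene left almost no fragments in these libraries. The 11 Mest transcripts in the table had 16 reads over all 18 libraries, 9 of them from Mest-202, and no library had more than 5. WT astrocytes had 1 Mest read and KIN astrocytes 2, while neurons had 2 in WT and 9 in KIN. No Mest transcript reached the 5 reads in at least 2 libraries that the test required. These are fragments of at least 20 bases in a small RNA protocol, so they do not measure the level of Mest mRNA, and allele of origin was not resolved.

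The neighbouring genes gave as little. Copg2 had 34 reads in sum, with 2 in WT and 9 in KIN astrocytes, Klf14, a Kruppel-like transcription factor, had 13, and Cep41, a centrosomal protein gene, had 7. Cpa4, a carboxypeptidase gene, had 3, and Cpa1 and Cpa5 of the same family had 0. None of these genes was tested in any KIN comparison.

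Mature miRNAs were also examined for a short list of other imprinted loci, which left out the miRNA clusters of the Dlk1-Dio3 and Sfmbt2 loci. Those on the list were scarce or were not called. Of 8 mature arms from the H19 (miR-675), Igf2 (miR-483) and Gnas-Nespas (miR-296 and miR-298) loci, both miR-675 arms had 0 reads and miR-483 at most 9 per arm over all libraries. miR-296-5p was at 13.0 ± 2.67 CPM in WT and 13.7 ± 1.75 CPM in KIN astrocytes (SD, n = 3), which differ by 0.20 ± 0.28 (log2, edgeR adjusted p of 0.653). miR-298-5p was at 6.46 ± 2.59 and 5.59 ± 0.788 CPM, which differ by -0.10 ± 0.39 (log2, edgeR adjusted p of 0.886). In neurons miR-298-5p was at 5.29 ± 2.31 CPM in WT and 11.9 ± 5.14 CPM in KIN, and the fitted difference of 1.14 ± 0.51 (log2) had an edgeR adjusted p of 0.917. No arm of these miRNAs was called in any fraction.

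Of 32 imprinted protein-coding and long non-coding genes, 31 were in the table and 8 had tested transcripts in astrocytes. In astrocytes 7 of their 60 tested transcripts were called, all lower in KIN and from Rian, Meg3 and Snhg14, where 8.18% of all features were called. In microglia 12 of 24 tested transcripts, also lower and from these 3 genes, were called, against 4.35% of all features, and in neurons 0 of 31. These calls depended on which libraries entered the fit. In astrocytes none was left in 5 of the 6 fits that left out 1 library, and 37 were made without WT replicate 2. In microglia none was left without WT replicate 1, WT replicate 3, KIN replicate 2 or KIN replicate 3, while 20 were made without WT replicate 2 and 9 without KIN replicate 1. Meg3 and Rian are long non-coding RNAs expressed from the maternal allele of the Dlk1-Dio3 domain, and Snhg14 is the paternally expressed host of snoRNAs in the Prader-Willi domain. Rian-209, for instance, was at 371 ± 191 CPM in WT and 123 ± 45.9 CPM in KIN astrocytes (-1.44 ± 0.39, edgeR adjusted p of 0.0412) and at 63.4 ± 45.0 CPM and 5.87 ± 1.67 CPM in microglia (-3.13 ± 0.62, edgeR adjusted p of 0.0276). The median over these transcripts was -1.10 in astrocytes, -3.07 in microglia and -0.46 in neurons, against -0.19, -0.11 and -0.11 over all tested features. Neuronal gene fragments had lower means in the same libraries, with 16.0 CPM in WT and 6.03 CPM in KIN astrocytes and 7.37 CPM and 0.570 CPM in microglia, and their part was not tested. Isoforms of a gene share sequence, so the transcripts are not independent.

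The 5 mature miRNAs whose log2 CPM followed miR-335-5p most closely over the 18 libraries, among 295 with at least 5 reads in at least 9 libraries, were mmu-miR-384-3p (Pearson r = 0.96), mmu-miR-130a-3p (0.95), mmu-miR-100-5p (0.95), mmu-miR-325-3p (0.95) and mmu-miR-384-5p (0.94). Against mature miRNA reads their r values were between 0.93 and 0.97. The libraries share fractions and depth, so these values mostly describe a common order of the fractions. All 5 were lowest in microglia, for example miR-100-5p at 13.3 CPM in WT microglia, 117 in WT neurons and 558 in WT astrocytes. In astrocytes their log2 fold changes of KIN over WT lay between 0.94 (miR-130a-3p) and 1.23 (miR-325-3p), below the 2.17 of miR-335-5p. miR-130a-3p went from 53.6 CPM in WT to 94.9 CPM in KIN astrocytes, beginning at the level of miR-335-5p in WT and ending below it in KIN.

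Fragments of the mRNAs best known as miR-335 targets were few. Sox4 had 196 reads in sum, of which 80 were in WT and 84 in KIN neurons, and 1 in WT and 5 in KIN astrocytes. KIN neurons differed from WT neurons in Sox4 fragments by -0.72 ± 0.57 (log2, edgeR adjusted p of 0.917). Rb1, which encodes the retinoblastoma protein, had 66 reads and Tnc had 3. Fragments of this kind are not a readout of target mRNA levels.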

How the data were processed

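Small RNA was sequenced by the study from magnetically sorted brain fractions with a kit that carries molecular identifiers. Whether they were collapsed is not given in the sources used here. Per the study's methods, the authors trimmed reads with Cutadapt 4.6 (minimum length 20), checked them with FastQC 0.11.9 and MultiQC 1.23, aligned them with Bowtie2 2.4.4 in local mode in successive rounds (mature miRNA, tRNA, piRNA, non-coding RNA, cDNA; mm39), and counted them with HTSeq 2.0.2 without strand and with no mapping quality minimum. A read taken by the mature round could not reach the hairpin. The values used are the raw counts per feature that the authors deposited. The deposited table also holds 36 per-library columns of normalized values and 15 columns of the authors' DESeq2 comparisons (log2 fold changes, p-values and adjusted p-values), none of which was used.

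Counts were tested with edgeR 4.0.16 in R 4.3.3 (glmQLFit, glmQLFTest), using TMM factors on library totals. A feature entered a fit with 5 or more counts in 2 or more of its libraries, and p-values were adjusted by Benjamini-Hochberg over the whole fit. Calls required an adjusted p up to 0.05 together with a log2 fold change of 1 or more in size. SE is the absolute log2 fold change over the square root of F. Each fit used only the libraries of its comparison. Arm shares were tested in scipy 1.17.1 in libraries with at least 10 reads of both arms. Positions came from matching RefSeq sequences to GRCm39 and from its GENCODE annotation, and folding from RNAfold 2.7.2. The code was tested on simulated data. Alternatives were DESeq2 1.42.0, scaling by library totals or by mature miRNA reads, no count filter, a replicate block, a fit over all 18 libraries, and leaving out each library.

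The miRNA and all gene and marker lists were chosen with earlier results of these data known. Named genes were both arms, the hairpin and Mest, neighbouring genes, other imprinted loci, the 5 most alike miRNAs, markers and known targets. Not every neighbouring gene is reported here. Replicates are separate animals. Depth limits microglia, where the 5p arm had 21 to 32 reads per library.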

Additional observations from a re-analysis of the deposited data

Results flagged for a closer look

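mmu-miR-335-5p had its KIN libraries on opposite sides of WT in 2 fractions. In CPM every KIN astrocyte library was above every WT astrocyte library, and every KIN microglia library was below every WT microglia library, orders shown by 10.8% and 18.5% of all tested features, respectively. The log2 ratio of mean CPM, KIN over WT, was 2.05 in astrocytes and -0.42 in microglia, a difference of 2.47. This difference was not tested, because miR-335-5p was chosen for its astrocyte values. The microglia side rests on 21 to 32 reads per library and did not pass its own test (edgeR adjusted p of 0.775).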

How the results depend on the processing

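The astrocyte value of the 5p arm kept its direction in all 12 alternatives (1.56 to 2.37) and that of the 3p arm in all 12 (1.12 to 2.18). The lowest values came from mature miRNA scaling, 1.56 and 1.12. The microglia value of the 5p arm stayed uncalled and negative in all 12 alternatives (-0.58 to -0.08, adjusted p of 0.295 to 0.933), and the KIN microglia-over-neuron call held in all 11 (-4.33 to -2.06). The neuron value of the 5p arm turned positive with mature miRNA scaling (0.0046), no filter (0.0072) and the replicate block (0.10), and ran from -0.43 to 0.64 when 1 library was left out. The hairpin in neurons turned positive with DESeq2 (0.014), mature miRNA scaling (0.10), no filter (0.12), the block (0.16) and 1 fit of 18 libraries (0.080), and ran from -0.28 to 0.67 over fits leaving out 1 library. Leaving out 1 library, the hairpin in microglia ran from -0.43 to 0.054, and over all 12 alternatives its lowest value was -0.60. The WT microglia-over-neuron value of the 5p arm ran from -2.60 to -1.54 leaving out 1 library and reached -3.69 with mature miRNA scaling. The interaction of the 5p arm turned negative with DESeq2 (-0.12), library totals (-0.29), mature miRNA scaling (-0.59), no filter (-0.32) and the replicate block (-0.11), and ran from -1.07 to 0.39 leaving out 1 library, that of the hairpin from -1.13 to 0.23. These neuron and interaction values were uncalled throughout, and the cause of the changes was not tested. Leaving out 1 library, arm share differences ran from -0.60 to 2.86 (KIN minus WT astrocytes), -1.10 to 0.62 (astrocytes minus microglia) and -3.05 to -1.06 percentage points (astrocytes minus neurons).

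Counts of called features moved more than the miR-335 values. In astrocytes, 466 became 1251 with mature miRNA scaling (16 higher and 1235 lower, against 102 higher and 364 lower) and 159 in 1 fit of 18 libraries. Leaving out 1 astrocyte library gave 41 (without WT replicate 3) to 1527 (without WT replicate 2), and 46 to 78 without one of the others. In microglia, 215 became 343 with DESeq2, 364 with mature miRNA scaling, 426 with no filter and 334 in 1 fit, and 0 (without WT replicate 1) to 940 (without WT replicate 2) over the fits leaving out 1 library. In neurons, 0 became 26 with mature miRNA scaling and 75 with no filter, and up to 52 without WT replicate 1. In WT microglia over neurons, 1446 became 2502 with mature miRNA scaling and 867 to 1683 leaving out 1 library. For the interaction, 41 became 102 with DESeq2, 91 with mature miRNA scaling and 100 with no filter, and 0 to 120 leaving out 1 library.

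The labels do not say what a replicate number marks. In no comparison were all same-number correlations above 0.1, and not every library correlated best with its own number. KIN replicate 1 had few Xist fragments in every fraction, a hint that the number marks a brain there. A block on the number changed calls from 215 to 49 in microglia and from 41 to 113 for the interaction, and changed no call of miR-335.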
